A study of Danio rerio with 6 samples.

Results

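The wild-type heart of the larval zebrafish was described here from 3 of the 6 RNA sequencing libraries of a study titled for Wwtr1, a transcriptional coactivator of the Hippo pathway. Whole hearts were dissected by hand from larvae at 57 to 59 hours post fertilization (hpf), and each library came from a pool of 23 hearts. The 3 libraries are those labelled WT, the wild-type siblings of mutants. The labels name no transgene or treatment for them, and the labels do not say whether all were homozygous. The 3 mutant libraries were not used. The genes described are the 25258 entries annotated as protein coding among 31701 features of the deposited table. Coordinates are on the GRCz10 (danRer10) assembly. Values are normalised read counts, that is, reads per gene scaled between libraries by the authors. They are not corrected for gene length, so an order between genes is an order of reads, not of transcripts.

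At this age the zebrafish heart is a beating tube looped into an atrium and a ventricle, joined by the atrioventricular canal. Contractile cardiomyocytes form its wall, the endocardium lines it, and the epicardium is only beginning to cover it. The outflow tract carries smooth muscle and elastic matrix, and the lumen holds embryonic red cells. Zebrafish descend from a fish ancestor whose genome was duplicated, so many single mammalian genes have a pair of zebrafish copies named a and b. One copy of such a pair may carry most of the expression in a given organ. A dissected heart may also bring along neighbouring tissue, and in a pool fewer cells of a type and less RNA per cell cannot be told apart.

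The libraries held 19187058, 25227868 and 21315482 normalised reads in WT replicates 1, 2 and 3, of which 42.6%, 37.5% and 41.4% were on protein-coding entries. Nuclear rRNA took between 31.3% and 37.1% and mitochondrial rRNA between 6.74% and 9.15%. A value of at least 10 in all 3 pools, called detected here, was reached by 16239 protein-coding entries, 64.3% of them, while 861 were at 0 in every pool. Of the protein-coding entries, 8 short ones lie within 20 kb of an abundant rRNA gene. The longest of these, zgc:158463 on chromosome 5 (825789 to 827000), alone had 1946340, 3008032 and 2589728 reads. These entries took 29.1%, 40.1% and 36.4% of the protein-coding reads, so shares below are of the protein-coding reads without them. WT replicate 2 stood apart from the others in reads of skeletal muscle and hatching gland genes. It was also the highest pool for most liver and skin genes, while WT replicate 3 was the lowest for most of these. The values are given beside the lists concerned.

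Contractile genes were prominent among the most read genes, and the lists of sarcomere genes together took 11.7% ± 0.81 (SD, n = 3) of the reads. Without the entries beside rRNA genes, the 10 most read genes took 11.1% of the protein-coding reads, the 100 most read took 27.7% and the 1000 most read 56.6%, and 643 genes made up 50%. The most read gene was the titin gene ttn.2, whose giant product spans from the Z-disc to the M-band, with 154783, 139556 and 135531 reads in WT replicates 1 to 3. The genes vmhcl, ttn.1, vmhc, hbbe1.1, eef1a1l1, mt-co1, krt4, hbae3 and hspa8 followed in that order of mean value. They encode ventricular myosins, a second titin, embryonic globins, a translation elongation factor, a cytochrome oxidase subunit, a skin keratin and a heat shock cognate chaperone. After these came the myosin myh6, the actin actc1a, the globin hbbe1.2, the chaperone hsp90ab1, the tropomyosin tpm4a and the elongation factor eef2b. The list of the 30 most read entries was stable between pools, sharing 29, 27 and 29 entries with the lists of WT replicates 1, 2 and 3 alone.

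**Figure D1:**
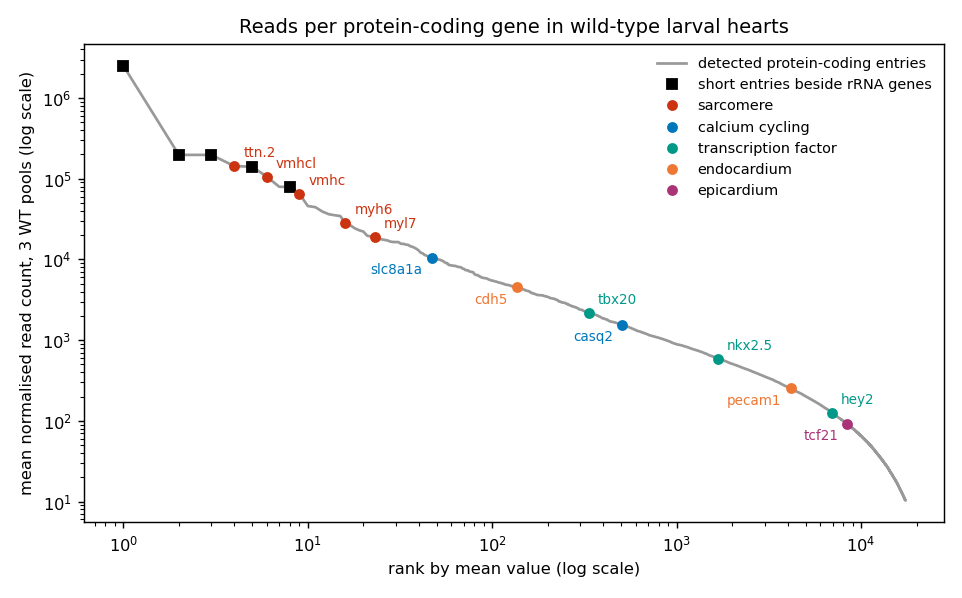
Mean normalised read count over the 3 WT pools (vertical, log scale) against rank (horizontal, log scale) for detected protein-coding entries, drawn as a line; squares are short entries beside rRNA genes and coloured points are named genes. The sarcomere gene ttn.2 (143290 reads on average) stands near the top, the transcription factor tbx20 at 2196 and the epicardial factor tcf21 at 91.7.

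Genomic span sets an upper limit on the length of a gene's RNA, so reads per kb of span are a lower bound on reads per kb of RNA. For the intronless mitochondrial genes this is the density itself. The bound holds only where the reads are the gene's own, which is uncertain for globins. The globin hbae3 had 27723 ± 1373 reads per kb of span (SD, n = 3), and hbbe1.2, which lies inside hbbe1.1 on the same strand, 31174 ± 1753. The mitochondrial mt-co1, a catalytic subunit of cytochrome oxidase, had 25267 ± 2551, and mt-nd5, a subunit of complex I, 7380 ± 774. The short gene cmlc1, which encodes a cardiac essential myosin light chain, had at least 17470 ± 1912 reads per kb, above the density of mt-nd5 in every pool. The ribosomal protein gene RPL41 had at least 3886 ± 280 and tmsb4x, an actin-sequestering thymosin, at least 3353 ± 195.

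Thick filament genes took 4.61% ± 0.39 (SD, n = 3) of the protein-coding reads, and 13 of 14 matched members were detected. The most read was vmhcl, a ventricular myosin heavy chain on chromosome 2 (24618673 to 24633992), with 120688, 100666 and 96031 reads. Its neighbour vmhc had 71816, 62208 and 61548, so every value of vmhcl lay above every value of vmhc. The atrial myosin heavy chain myh6 had 29706, 26503 and 27801 reads. Among the 5 myosin heavy chains of the set compared, vmhcl held 49.8% ± 1.4, vmhc 30.8% ± 0.31 and myh6 13.3% ± 0.72. The genes myh7bb and myh7ba held the remaining 3.45% ± 0.19 and 2.66% ± 0.20. That set leaves out the fast skeletal myosins, such as myhz1.1 at 9973, 18449 and 10092 reads. The entry of myh6 spans 5935 bases, against 13392 for vmhc and 15320 for vmhcl, and whether it is complete was not tested. Of the partner proteins, the regulatory light chain myl7 had 22303, 17326 and 17264 reads, the myosin-binding protein mybpc3 17779, 14728 and 14294, and cmlc1 15560, 13594 and 12564. All of these were highest in WT replicate 1. Skeletal-type binding proteins were low, with mybpc1 at 201, 205 and 123 reads and mybpc2a at 6, 3 and 4.

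Thin filament genes took 2.25% ± 0.16 of the reads, with 21 of 24 matched members detected. The cardiac actin actc1a had 28635, 26670 and 24045 reads, and the entry that the gene name table calls actc1c had 19169, 17373 and 15901. The tropomyosin tpm4a, which covers the myosin sites on actin, had 24475, 21355 and 20602 reads and held 88.6% ± 1.1 of the reads of the set of tpm2, tpm3, tpm4a and tpm4b. That set leaves out the alpha-tropomyosin gene tpma, at 3376, 5260 and 2782 reads, and TPM1 at 215, 266 and 222. Among the troponins, which make the filament respond to calcium, tnnt2a had 17675, 15941 and 15703 reads, tnni1b 13606, 11745 and 10916, and tnnc1a 10648, 8291 and 8131. Within the sets compared, tnnt2a held 97.8% ± 0.18 of the reads of 5 tnnt2 genes, tnni1b 99.6% ± 0.16 of 4 tnni1 genes and tnnc1a 91.5% ± 0.79 of its pair. The tnni1 relatives tnni1c, tnni1d and tnni1a stayed at or below 68 reads in any pool. The fast skeletal troponins, outside these sets, had more: tnnt3b had 2212, 3271 and 1704 reads and tnni2a.4 982, 1547 and 825. WT replicate 1 was highest for 10 of the 21 detected members and WT replicate 2 for 8. Of all 7996 entries with a mean of at least 100, 2906 and 1981 were highest in these pools. Members highest in WT replicate 2 included the actins actc1b (8102, 15069 and 6833 reads) and acta1b (7577, 8511 and 7017). All 20 entries of the fast skeletal muscle list below were also highest in that pool. The reads of actc1b are counted in the thin filament share, and whether they came from the heart was not tested.

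Z-disc, M-band and titin genes took 4.83% ± 0.30 of the reads, and 25 of 28 matched members were detected. ttn.1 had 87584, 77640 and 73286 reads. It lies inside the span of ttn.2 on the same strand of chromosome 9 (42931205 to 43071913 within 42931207 to 43272173, apart from the first bases), so the split of reads between both titins is uncertain. The Z-disc crosslinker actn2b had 10908, 9681 and 9111 reads, and the M-band protein myom1b 8220, 7138 and 7101. In the same list synpo2lb, obscnb and nexn had means of 5430, 4661 and 4388. The desmin gene desma, whose filaments tie neighbouring myofibrils together, had 3716, 3751 and 3370 reads. The titin cap gene tcap had 10, 5 and 3 reads and nebl, which encodes the thin-filament protein nebulette, had 3, 0 and 4. WT replicate 1 was highest for 18 of the 25 detected members and WT replicate 3 for none of them. Of all 7996 entries with a mean of at least 100, 2906 and 3109 were highest in these pools.

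Ventricular and atrial genes were both present, at very unequal read numbers. The ventricular list took 3.03% ± 0.28 and the atrial list 0.561% ± 0.020, with vmhcl and vmhc making up nearly all of the former and myh6 (28003 ± 1611 of 31964 reads) most of the latter. Outside the myosins, the ventricular factor irx1a had 1017, 913 and 823 reads, irx3a 471, 389 and 466, and irx4a 103, 104 and 68. The gene hey2, a transcriptional repressor of the Hey family, had 139, 118 and 123. On the atrial side mybphb, a myosin-binding protein H, had 1683, 1922 and 1546 reads and smtnl1, a smoothelin-like protein, 760, 751 and 707. The atrial factor nr2f1a had 421, 455 and 658 reads, with WT replicate 3 above the others. The factor tbx5a, placed in the atrial list although it acts in both chambers, had 938, 840 and 844 reads, and its whole span lies inside that of ddx54 on the opposite strand and overlaps tbx3a in part.

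Genes of calcium cycling and ion channels took 0.657% ± 0.027, with 15 of 17 matched members detected. The sodium-calcium exchanger slc8a1a, which removes calcium from the cell, had 11473, 9900 and 10153 reads, and the calcium release channel ryr2b 10552, 9547 and 10015. Their ranges over the pools overlapped, with slc8a1a the higher within each pool. The calcium pump atp2a2a, which refills the sarcoplasmic reticulum, had 6095, 5784 and 5714 reads. The T-type channel cacna1g had 3099, 2813 and 2857 reads, above the L-type channel cacna1c at 1554, 1474 and 1457 in every pool. The calcium store protein casq2 had 1796, 1489 and 1389 reads and its anchor trdn 1621, 1474 and 1391. The repolarising potassium channel kcnh6a had 1583, 1493 and 1380 reads, while kcnh2a stayed at 4, 3 and 5. Under pln, the symbol of phospholamban, the table holds an antisense entry with 3125, 2619 and 2226 reads, outside the protein-coding set.

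In the pacemaker and venous pole list the pacemaker channel hcn4 led with 978, 834 and 900 reads, next to bmp4, a signal of the canal and venous pole, at 975, 768 and 900. A second pacemaker channel, hcn2b, had 617, 567 and 562. The sinus node factors were lower: shox2 had 142, 140 and 140 reads, tbx18 239, 230 and 210, isl1 69, 62 and 91, and isl2a 85, 56 and 116. Natriuretic peptides, hormones released by the heart wall, took 0.226% ± 0.010. The main one, nppa, had 12719, 11653 and 11298 reads and nppb 1062, 977 and 948. The third, nppc, was at 5, 3 and 3.

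Junction genes took 0.363% ± 0.011, and all 17 matched members were detected. N-cadherin, cdh2, had 5267, 4221 and 4507 reads, and its partners ctnnb1 and ctnna1, beta- and alpha-catenin, 3304, 3155 and 3172 and 2678, 2555 and 2606. The desmosomal plaque gene dspa had 1644, 1641 and 1633 reads, one of the tightest sets of values in the data. The gap junction genes were read less, with cx43.4 at 241, 222 and 285, cx36.7 at 220, 224 and 223, cx43 at 52, 60 and 82 and cx45.6 at 13, 15 and 23. Values of cx43.4 and cx36.7 overlapped.

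Of 21 matched cardiac transcription factor genes 20 were detected, and all 21 together took 0.303% ± 0.018. The T-box factor tbx20 had 2503, 1992 and 2092 reads and gata5 2311, 2071 and 2012, which overlapped. The bHLH factor hand2 had 1792, 1543 and 1461 reads, the muscle activator mef2ca 1813, 1457 and 1377, and the smooth and cardiac muscle coactivator myocd 1366, 1186 and 1396. The early heart gene nkx2.5 had 627, 627 and 514 reads and its relative nkx2.7 247, 178 and 237. Among 3 GATA genes gata5 held 46.1% ± 0.31 of the reads, gata4 27.8% ± 0.84 and gata6 26.1% ± 0.93, and gata4 and gata6 overlapped. The second heart field factor tbx1 had 208, 234 and 361 reads, highest in WT replicate 3, as was isl1. The genes of the Hippo pathway's end were present as well: wwtr1 had 362, 416 and 471 reads and its relative yap1 1252, 1186 and 1301. Their DNA-binding partner tead1b had 424, 304 and 354.

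Endocardial and endothelial genes took 0.411% ± 0.015, with 28 of 29 matched members detected. The receptor notch1b had 6004, 5883 and 5573 reads and the endothelial cadherin cdh5 5129, 4109 and 4238. The receptor tie1 had 1849, 1863 and 1706, the junctional heg1 1218, 1130 and 1051, and the ETS factor fli1a 1099, 1011 and 1075. The VEGF receptor kdr had 1040, 1009 and 989 reads and kdrl 808, 806 and 843, so kdr was higher in each pool. Of the genes of lymphatic and scavenger endothelium, stab1 had 611, 584 and 518 reads, stab2 33, 47 and 68, mrc1a 18, 16 and 47, and lyve1b 4, 3 and 9. WT replicate 3 was highest for stab2, mrc1a and lyve1b and lowest for stab1.

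In the list for the atrioventricular canal and valve, 15 of 16 matched members were detected, and all 16 together took 0.273% ± 0.013. After notch1b, the highest was alcama, an adhesion molecule of the canal endocardium and myocardium, with 2592, 2238 and 2292 reads. The matrix proteoglycan gene vcana had 1899, 1517 and 1595 reads, and has2, which makes the hyaluronan of the cardiac jelly, 761, 650 and 677. The valve factor nfatc1 had 1066, 926 and 977 reads. The flow-responsive klf2b and klf2a had 880, 714 and 733 and 691, 668 and 535 reads. The canal repressor tbx2b had 712, 589 and 729, and foxn4 40, 57 and 37.

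Epicardial genes ranged from percentile 28.6 to 98.2 among detected genes, with a median of 60.1, and those shared with other tissues were the most read. The list took 0.0879% ± 0.0059 of the reads, and its highest members podxl, also made by other epithelia and endothelia, and gata6, also a myocardial factor, had 2841, 2340 and 2360 and 1316, 1126 and 1183. The defining factors were lower, with tcf21 at 77, 92 and 106 reads, wt1a at 83, 100 and 72, and tbx18 as given above. The retinoic acid enzyme aldh1a2 had 279, 217 and 419 reads and sema3d, a secreted guidance cue, 40, 34 and 62. Of the 10 members 6 were highest in WT replicate 3, beside 3109 of all 7996 entries with a mean of at least 100.

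Outflow smooth muscle genes took 0.0882% ± 0.0063. The most read member was elnb, an elastin, with 2251, 1987 and 2281 reads. The smooth muscle contractile genes were lower: myh11a had 555, 563 and 525 reads, acta2 347, 368 and 332 and tagln 59, 69 and 68. Matrix and mesenchyme genes took 0.914% ± 0.046, and all 20 matched members were detected. The collagen I genes col1a1b, col1a1a and col1a2 had means of 6412, 5890 and 5278 reads and were highest in WT replicate 2. The fibronectin fn1a had 4845, 4397 and 5313 reads and the laminin lamc1 4443, 4028 and 4292. The mesenchymal receptor pdgfra had 1013, 947 and 1661 reads, with WT replicate 3 well above the other two.

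**Figure D2:**
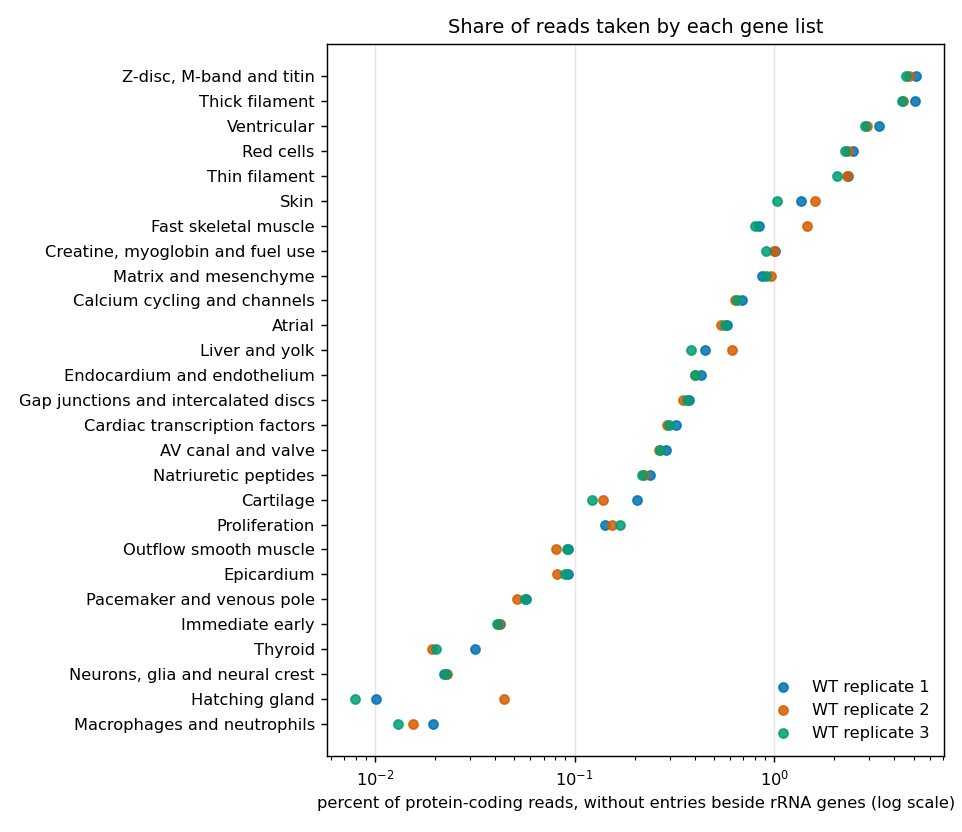
Percent of the protein-coding reads of each library, without the entries beside rRNA genes, taken by each of 27 gene lists (horizontal, log scale); each point is 1 WT pool. Sarcomere lists lie at 2.06% to 5.16%, while the hatching gland list runs from 0.00799% to 0.0442%, with WT replicate 2 highest.

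Genes of energy supply took 0.973% ± 0.055. The ADP/ATP carrier slc25a5 had 17815, 16178 and 15187 reads, while the related carrier slc25a4, the main form of mammalian heart, had 170, 187 and 143. Creatine kinase ckma had 5137, 5930 and 4438 reads, myoglobin, mb, 1177, 1011 and 995, and the fatty acid binding protein fabp3 1112, 1051 and 1077. The lactate dehydrogenases ldhba and ldha overlapped, at 2222, 2334 and 2149 and at 2364, 1933 and 2003. The 13 protein genes of the mitochondrial chromosome took 3.39%, 2.97% and 2.93% of the reads, highest in WT replicate 1, where mitochondrial rRNA was also highest. Cytosolic ribosomal protein genes, 79 entries, took 4.97%, 4.93% and 5.28%.

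Proliferation genes were expressed, with all 16 matched entries detected. The cycling marker mki67 had 1976, 2007 and 2292 reads, top2a 1408, 1480 and 1498, and the replication clamp pcna 690, 798 and 856. WT replicate 3 was highest for 11 of the 16, beside 3109 of all 7996 entries with a mean of at least 100. The share of the list was 0.142%, 0.153% and 0.169%. Immediate early genes, which handling can induce, were led by jun at 841, 840 and 839 and egr1 at 510, 494 and 419, while fosab had 47, 18 and 48.

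Genes of other cells were measured alongside. Red cell genes took 2.36% ± 0.11. The embryonic beta-type globin hbbe1.1 had 50396, 43733 and 43652 reads, the alpha-type hbae3 37147, 34946 and 33699, and alas2, the first enzyme of haem synthesis in red cells, 1382, 1660 and 1327. The entries of hbbe1.1 and several other globins on chromosome 3 overlap each other, and globin copies may share reads, so their order is uncertain. The entry of hbae3 overlaps no other feature. White cell genes were low, with the neutrophil genes lyz and mpx at 291, 192 and 124 and at 163, 146 and 99, and the macrophage gene mpeg1.1 at 21, 16 and 29. All 12 matched members of that list, of which 11 were detected, together took 0.0160% ± 0.0032. Neuronal and glial genes summed to 1280, 1296 and 1271 reads over 13 members, with foxd3 at 0 in every pool.

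Fast skeletal muscle genes, a list that also holds the slow myosin smyhc1, took 0.843%, 1.46% and 0.806% of the reads. Skin genes took 1.36%, 1.60% and 1.03%, so WT replicate 2 held the most of both. The fast myosin myhz1.1 had 9973, 18449 and 10092 reads, the calcium pump atp2a1 2348, 4204 and 2088, and the calcium buffer pvalb1 2261, 4010 and 1794. All 20 skeletal entries were highest in WT replicate 2, beside 1981 of all 7996 entries with a mean of at least 100. The periderm keratin krt4 had 38483, 42967 and 27512 reads and the basal keratin krt5 8298, 9913 and 6403. Liver and yolk genes took 0.452%, 0.612% and 0.381%, led by the lipid carrier apobb.1 at 10014, 12123 and 7047, and the liver fatty acid binding gene fabp10a had 3, 25 and 87. Hatching gland genes, which encode the proteases that open the egg envelope, were the most uneven: he1a had 118, 328 and 81 reads, and the more read of 2 ctslb entries, cathepsin genes of that gland, 223, 1090 and 177. Without WT replicate 2 the hatching gland list summed to 585 and 448 reads against 2503 in that pool.

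Cartilage genes, of the jaw and gill skeleton near the heart, were highest in a different pool, though their share was also lowest in WT replicate 3. They took 0.205%, 0.139% and 0.123%, and all 11 were highest in WT replicate 1, beside 2906 of all 7996 entries with a mean of at least 100. The collagen col2a1a had 5796, 3616 and 3119 reads and the cartilage protein matn1 225, 51 and 16. Thyroglobulin, tg, the hormone precursor of the thyroid beside the outflow tract, had 1727, 1002 and 1017 reads, while the thyroid receptor tshr stayed at 13, 9 and 14. White cell genes were also highest in WT replicate 1, in 7 of 11. For both lists, the figure over all 7996 entries with a mean of at least 100 was 2906. The part of these tissues in the heart values was not tested.

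For paralogues, 2 genes whose symbols differ only in a final a or b were taken as an a/b pair. Whether both are copies of 1 ancestral gene was not checked, so the shares below are of pairs by symbol. Each pair was compared within each pool, as the log2 ratio of value + 1. Limma was run across all pairs with at least 1 member at a mean of 10. A ratio of reads does not correct for unequal lengths of the copies. Of 2329 pairs tested, 1529 (65.7%) had 1 member at least 2-fold above the other with an adjusted p under 0.05. Member a was the higher in 856 (36.8%) and member b in 673 (28.9%). The difference reached 4-fold in 942 pairs and 10-fold in 513, and the median over all tested pairs was 2.94-fold. In 555 pairs the lower member had a mean under 10 reads, and in 17 it was listed at 0 in every pool. The ratio was stable between pools, with a median SD of 0.32 on the log2 scale. Among the called pairs 1526 had the same direction in all 3 pools. The rule for a call uses these same pools and nearly ensures this, so the count is no separate measure of stability.

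The 10 pairs with the largest difference, with a higher member of at least 500 reads on average, included genes of several roles. The troponin I gene tnni1b had the values given above, while tnni1a had 2, 1 and 4 reads. The membrane-cytoskeleton linker msna had 5761, 5341 and 5651 reads against 0, 7 and 0 for msnb. Cytochrome c, cycsb, had 2490, 2317 and 2111 reads and cycsa was listed at 0. The crosslinker macf1a had 7426, 7122 and 7482 reads and macf1b 7, 5 and 10. The mitochondrial phosphate carrier slc25a3b had 3191, 2946 and 2912 reads against 5, 2 and 4 for slc25a3a. The ubiquitin ligase rnf207b, linked to cardiac repolarisation in zebrafish and human, had 854, 710 and 646 reads, with rnf207a listed at 0. The others of the 10 were eif3ba, pdha1a, tnnt2a and rps8a, whose partners stayed at or below 26 reads in any pool.

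Among 48 cardiac gene sets with at least 2 matched members, the most read member had no value overlapping with the next in 46. The order was set by the mean of these same pools, and no such count was made over all tested pairs. It therefore cannot be read as a trait of cardiac genes. The first 2 members formed a tested a/b pair in 38 sets, of which 30 (78.9%) were called, 19 with a and 11 with b higher, beside 65.7%, 36.8% and 28.9% of all tested pairs. In calcium handling, slc8a1b had 36, 54 and 47 reads, a log2 ratio of slc8a1a over it of 7.83 ± 0.14 (SE, limma adjusted p = 1.67e-09). The pump atp2a2b had 918, 795 and 1012, 6.48-fold below atp2a2a. In the sarcomere, desmb had 21, 32 and 30 reads and synpo2la 139, 193 and 139, far below desma and synpo2lb. Among regulators, mef2ab had 5, 15 and 15 reads against 1542, 1421 and 1469 for mef2aa. The factor tbx5b had 128, 108 and 116, a log2 ratio of 2.89 ± 0.10 for tbx5a over tbx5b (SE, limma adjusted p = 3.63e-08). The elastin elna had 48, 54 and 69 reads, and the log2 ratio of elna over elnb was -5.24 ± 0.12 (limma adjusted p = 4.68e-09).

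The a member was also called higher for tnnc1, ldb3, xirp2, cacnb2, ckm, irx1, irx4, nr2f1, fli1, mef2c, vcan and jup, by 2.38-fold (ckm) to 98.7-fold (irx1). The b member was called higher for myoz2, myom1, ckmt2, tead1, notch1, postn, vcl, bmp2 and smyd1, by 2.65-fold (vcl) to 32.1-fold (ckmt2, whose a member had 1, 0 and 4 reads). Of the 53 sets, 5 had 1 matched member, namely actn2b, ryr2b, tbx3a, dspa and jag2b.

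The most constant ratio of these sets was that of the natriuretic peptides, in which nppa had 11.98, 11.93 and 11.92 times the reads of nppb in WT replicates 1, 2 and 3. The SE of its log2 ratio of 3.58 was 0.07 (limma adjusted p = 1.78e-09). The receptor notch1b held 90.6% ± 0.49 of the reads of its pair, with notch1a at 602, 596 and 619. Among the 38 sets whose first 2 members formed a tested a/b pair, the largest ratio was that of ldhba over ldhbb, at 562-fold. However, ldhbb had only 6, 2 and 2 reads. On the log2 scale the ratio was 9.13 with a pseudocount of 1, 9.34 with 0.5 and 8.10 with 5. For ckmt2a over ckmt2b, also with a low member, the log2 ratio was -5.52 with a pseudocount of 0.5, -3.50 with 5, -4.29 without WT replicate 2 and -5.68 without WT replicate 3.

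The fitted difference was under 2-fold in 8 of the 38 pairs, those of tbx2, klf2, cldn5, wt1, col1a1, fn1, hapln1 and tjp1. In single pools it passed 2-fold for fn1 (2.20 in WT replicate 1), cldn5 (2.22 in WT replicate 1) and wt1 (2.08 and 2.38 in WT replicates 1 and 2). Only col1a1 of the 8 had a limma adjusted p over 0.05. The collagen col1a1b had 5939, 7548 and 5749 reads and col1a1a 5659, 6932 and 5078. The log2 ratio of col1a1a over col1a1b was -0.12 ± 0.07 (SE), with a limma adjusted p of 0.119, and the ranges overlapped. The matrix link protein hapln1b had 1924, 1652 and 1528 reads and hapln1a 1559, 860 and 1331. Their ranges overlapped, but hapln1b was higher in every pool, with a log2 ratio of hapln1a over it of -0.48 ± 0.13 (limma adjusted p = 0.00969). The tight junction gene tjp1a had 2844, 2723 and 2890 reads and tjp1b 1763, 1480 and 1710, a log2 ratio of 0.78 ± 0.07 (limma adjusted p = 1.38e-05), so this difference was larger than its error yet under 2-fold. For wt1a over wt1b the ratio was 0.78 ± 0.28, and wt1b overlaps kifc3 on the opposite strand.

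**Figure D3:**
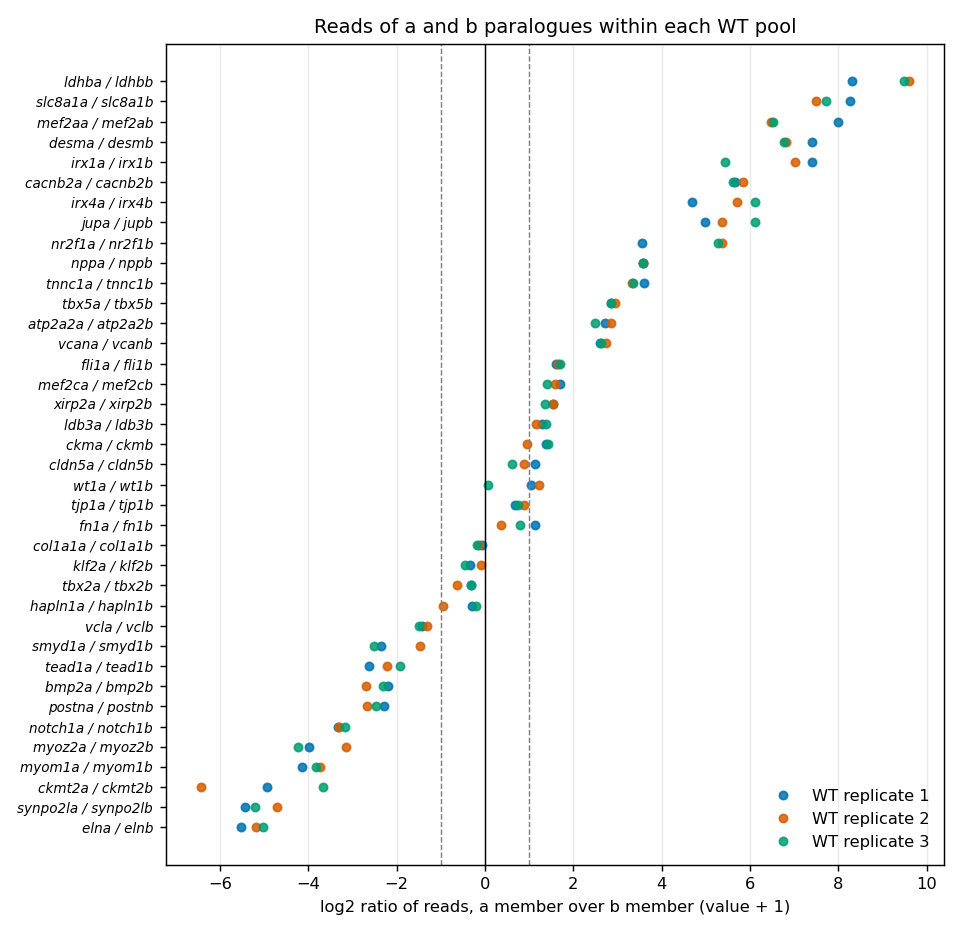
Log2 ratio of reads (value + 1), a member over b member, for 38 cardiac a/b pairs (vertical); each point is 1 WT pool, the solid line marks equal reads and dashed lines mark 2-fold. The points of a pair lie close together compared with the range between pairs, from elnb (38-fold above elna) to ldhba (562-fold above ldhbb).

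The pools resembled each other, with log2 values of 17504 entries correlating at Pearson r of 0.961 to 0.969 between pairs of pools, as a description across genes. For the 7996 entries with a mean of at least 100, the median coefficient of variation (CV, the SD over the mean of 3 pools) was 9.19%. It was under 10% in 4479 (56.0%) and over 30% in 245 (3.06%). The CV fell with the number of reads, from a median of 33.2% for means of 10 to 20 to 6.94% for means of 1000 to 5000. Counting error alone would give 26.7% and 2.52% there if the values were unscaled counts, which they are not. The spread was above both figures, by more in proportion at high means. Cardiac transcription factors had a median CV of 8.60%, endocardial genes 7.27% and calcium cycling genes 7.05%. Some other heart lists were higher, with epicardial genes at 16.2%, outflow smooth muscle at 14.0% and canal and valve genes at 11.9%. Thin filament genes had 11.4% and thick filament genes 11.1%. Fast skeletal muscle genes had 33.7% and hatching gland genes 94.7%.

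**Figure D4:**
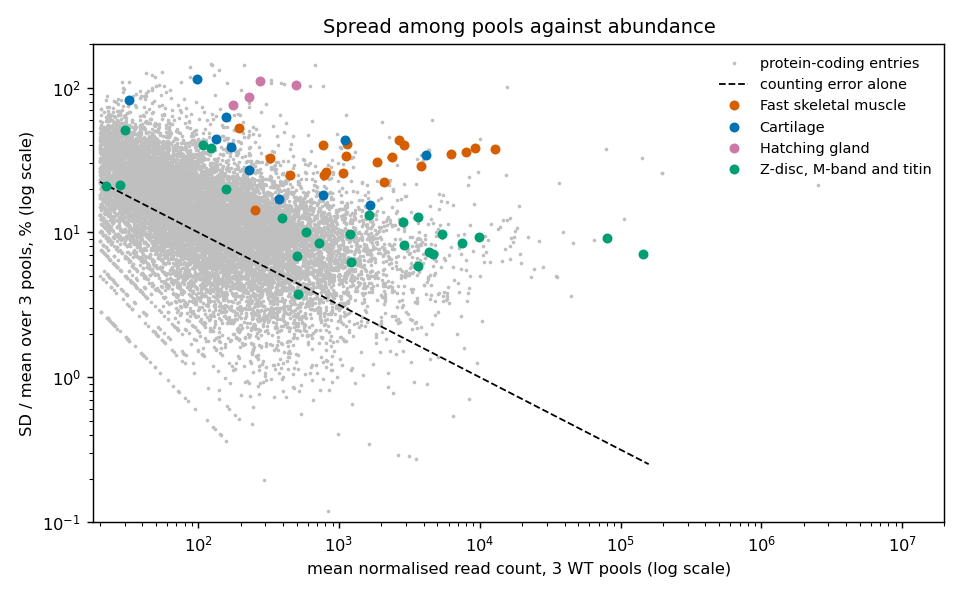
SD over mean of the 3 WT pools in percent (vertical, log scale) against mean normalised read count (horizontal, log scale) for detected protein-coding entries with a mean of at least 20. The dashed line is the spread that counting alone would give if the values were unscaled counts. Entries with almost no spread fall below the axis. Titin and Z-disc genes lie among the other entries of their level, while fast skeletal muscle and hatching gland genes lie above them.

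The tightest genes with a mean of at least 500 were jun, eno3 (a muscle enolase, 3509, 3516 and 3528 reads), the integrin adaptor tln1 (3166, 3151 and 3150) and the clathrin gene cltca (2603, 2618 and 2612). The junction gene dspa, arid4a, the ribosomal protein genes rpl19 and rps27.2, the receptor lgr4 and the endocytic epn2 completed the 10. The CV of jun was 0.12%, while counting error alone would give a median of 3.85% for means of 500 to 1000, if the values were unscaled counts. These are the lowest of many CVs, each from 3 pools, so their order cannot be read as a trait of the genes. Of 2036 genes at that level, 45 had a CV over 30%. WT replicate 2 was the highest pool in 36 of them, WT replicate 1 in 5 and WT replicate 3 in 4. Over all 7996 entries with a mean of at least 100, the highest pool was WT replicate 1 in 2906, WT replicate 2 in 1981 and WT replicate 3 in 3109. Among those highest in WT replicate 2 were the mucin muc5.1 (1456, 3363 and 1227 reads), mrpl28, a mitochondrial ribosomal protein (1504, 3453 and 1875), the methyltransferase prmt2 (263, 1030 and 650) and the DNA-binding nabp1b (746, 1731 and 1121). The cartilage collagen col11a2 had 1648, 846 and 806 reads, highest in WT replicate 1. The basement membrane gene nid2a had 803, 780 and 1472, highest in WT replicate 3.

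By list, the median deviation from the mean of the pools on the log2 scale was largest for hatching gland genes, at -0.48, 1.48 and -0.91 in WT replicates 1, 2 and 3. Fast skeletal muscle genes had -0.16, 0.51 and -0.36, and cartilage genes 0.58, -0.17 and -0.27. The heart's own lists had smaller largest deviations, with thick filament genes at 0.10, -0.06 and -0.12 and cardiac transcription factors at 0.10, -0.10 and -0.02. Endocardial genes had 0.05, -0.03 and -0.03. Larger values among heart lists were those of epicardial genes, at -0.05, -0.12 and 0.18, and ventricular genes, at 0.15, -0.06 and -0.11. Proliferation genes had -0.14, 0.01 and 0.12. All 7996 entries had medians of 0.01, -0.03 and 0.02. Scaled to equal totals of all protein-coding reads, which include the entries beside rRNA genes, these medians became 0.12, -0.14 and 0.02. Most deviations of the heart's own lists are about the size of that shift. With those entries left out of the totals, the medians were smaller, at -0.01, -0.03 and 0.04. Factors from a trimmed mean of ratios (TMM) gave 0.01, -0.02 and 0.01. Thick filament genes in WT replicate 1 were at 0.21, 0.07 and 0.10 on these scales in turn. WT replicate 2 was still highest for 20 of 20 skeletal and 4 of 4 hatching gland entries under each of the 4 scalings tried. The hatching gland entries are not 4 separate measures. On the same strand, he1a overlaps he1b by 1387 bases, and both ctslb entries lie inside the same larger entries. The number for skin was 13 of 16 on the deposited scale and 10 of 16 on equal protein-coding totals. For liver and yolk it was 14 and 11 of 17. With the entries beside rRNA genes left out of the totals, it was 13 for skin and 13 for liver and yolk. With TMM factors it was 13 and 14.

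**Figure D5:**
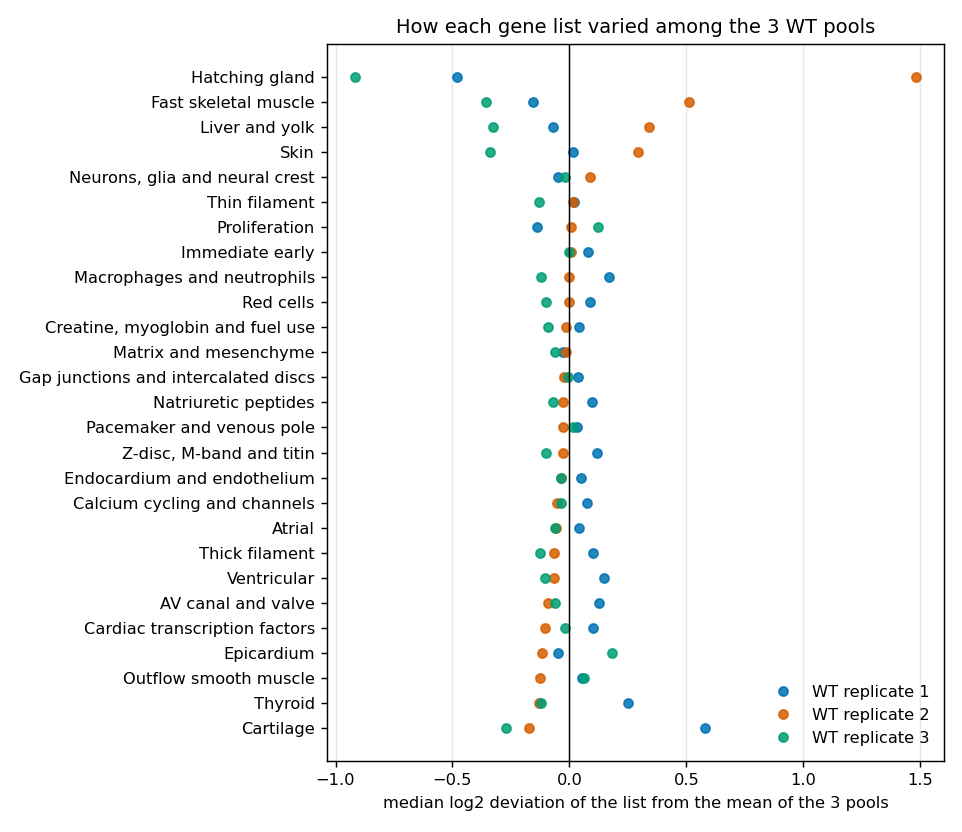
Median log2 deviation of the detected members of each gene list from their mean over the 3 WT pools (horizontal); each point is 1 pool. Hatching gland and fast skeletal muscle lie at 1.48 and 0.51 in WT replicate 2 and cartilage at 0.58 in WT replicate 1, while most cardiac lists stay within 0.15 of 0.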

How the data were processed

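Libraries were made from 6.5 ng of total RNA (Qiagen miRNeasy) with the Clontech Pico Input Mammalian kit and sequenced on a NextSeq500 as single 75 nt reads, at least 30 M per library, per the labels' protocols. STAR 2.4.0a and featureCounts 1.4.5-p1 (Subread) with danRer10 (GRCz10) are named in the submitters' processing notes. Not given in the sources used here were the scaling, the strand setting and the treatment of reads that map to several places. The deposited values are a score, namely the authors' normalised read counts rounded to whole numbers, so no count model was used. Entries for the same short RNA on chromosome 5 had 145814 and 145794 reads in WT replicate 1, so near-identical genes may share reads. Globins, fast myosins, actins, cytokeratins and hatching gland genes are therefore uncertain. Of 415 genes of the lists, sets and top entries, 114 overlap another feature.

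No gene lengths were available, so the length correction planned for levels and pairs was not made, and values without it are the main ones. Pairs were tested with limma 3.58.1 (R 4.3.3) as log2(value + 1) against equal reads, with the variance trended on the mean, and p-values were adjusted by Benjamini-Hochberg over 2329 pairs. A call needs an adjusted p under 0.05 and 2-fold. An exact sign-flip test on 3 libraries cannot go below 0.25. The procedure was tested on simulated data. Tables were made in Python 3.11.15 with pandas 2.3.3.

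The members and lists were chosen with earlier results of these data known, and the rule on entries beside rRNA genes after values were seen. Lists matched 406 of 427 symbols by table symbol or gene name table. Genes named are the 30 most read entries, up to 6 leading members and low members of each list, all paralogue sets, the 10 most unequal pairs whose higher member has a mean of at least 500, and the genes of highest and lowest CV. Clone-named genes may be left out, and wwtr1, yap1 and a few lower list members were added. The labels call the pools biological replicates.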

Additional observations from a re-analysis of the deposited data

How the results depend on the processing

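A minimum value of 50 left 10331 of 16239 protein-coding entries detected, a minimum of 5 gave 18081, and leaving out 1 library gave 16613 to 16725. The entries beside rRNA genes decided how concentrated the reads are: 61 entries made up 50% of the protein-coding total with them and 643 without, an alternative chosen after seeing the data. Leaving out WT replicate 1, 2 or 3 gave 43, 85 and 60. Of the 1529 called pairs, 942 reached 4-fold, and no called pair changed direction with another pseudocount or without 1 library. The settings of fold, filter and variance trend leave the ratio itself as it is, so they cannot change its direction. Calls numbered 1039 with both members at a mean of at least 10 and 1438 to 1476 without 1 library. Among the cardiac pairs ldb3, xirp2, ckm, mef2c, fli1 and vcl did not reach 4-fold, and cldn5 and wt1 passed 2-fold without WT replicate 3. The median CV of 9.19% became 12.6% with values scaled to equal protein-coding totals. It was 12.7% for means of at least 20 and 7.08% for means of at least 1000. With 1 library left out it was 7.32% to 7.62%. The median CV of 2 values is lower than that of 3 from the same spread, so these figures cannot be compared with 9.19%. Without WT replicate 2 the hatching gland list's median percentile among detected genes fell from 74.5 to 54.1 and that of the thyroid list, with few detected members, from 70.3 to 25.9. Values per kb of length and other length measures were not run for want of lengths. No paired analysis was possible because only the WT group is described.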

Other observations

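Outside the gene lists, the transcription factors annotated as such in the table, an incomplete annotation of 391 entries of which 274 were detected, were led by foxp4 with 2724, 2494 and 3184 reads in WT replicates 1 to 3. This forkhead factor stood above tbx20 and gata5 in every pool. The aryl hydrocarbon receptor ahr2 had 2260, 1796 and 1649 reads, the GATA cofactor zfpm1 1804, 1627 and 1573, and the chromatin protein hmga2 1471, 1461 and 1777. Of 373 entries annotated as G protein-coupled receptors 70 (18.8%) were detected, beside 64.3% of all protein-coding entries. The share was 70.1% for the annotated transcription factors, 53.9% for growth factors and 39.3% for ion channels. The leading G protein-coupled receptors were the muscarinic receptor chrm2a, which slows the heart, at 380, 381 and 367 reads, and the Wnt receptor fzd2 at 360, 386 and 349. The apelin receptor aplnra had 372, 293 and 244 reads and the sphingosine phosphate receptor s1pr2 240, 192 and 215.

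The coagulation factor gene f8 on chromosome 14 (988827 to 1022472) had 15057, 14567 and 13300 reads, which placed it 37th among the protein-coding entries, above cmlc1 by its mean, with a CV of 6.34%. The clone-named entry si:dkey-9l20.3 on chromosome 23 had 7202, 33682 and 5988 reads, and si:dkeyp-118b1.2, called ATXN7L3 in the gene name table, 114, 127 and 1795. These genes were picked after their values were seen.

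On chromosome 4 the share of protein-coding entries detected was alike along its length, between 62.1% and 76.4% in windows of 10 Mb. The median value of detected entries was 71.3 to 112 in the windows up to 30 Mb and 27.0 to 37.7 from 30 to 80 Mb, beside 97.3 over all detected entries.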
